A study of Mus musculus with 9 samples.

Results

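The comparison described here is that of Zbtb7a conditional heterozygous with wild-type cortex at embryonic day 12 (E12) of the mouse, and its members are all genes in the authors' deposited table for it. That table held 248 genes of 15465 tested, which is 1.6%, with 126 higher in the heterozygotes (0.815%) and 122 lower (0.789%). Genes with an adjusted p under 0.05 in the authors' DESeq2 test were in it, and every other gene either missed that threshold or was not tested. Zbtb7a encodes a DNA-binding protein with a BTB domain and zinc fingers that is best known as a transcriptional repressor. At this stage the cortical wall holds radial glia, which divide at the ventricle, and the first neurons that leave them. Patterning transcription factors set the regional identity of those progenitors, while growth genes for ribosomes, translation and DNA synthesis serve their division.

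Polyadenylated RNA was sequenced from 3 wild-type embryos (WT, Emx1 Cre/+; Zbtb7a +/+) and 3 conditional heterozygotes (cHet, Emx1 Cre/+; Zbtb7a fl/+). All 6 carried Cre recombinase at Emx1, so the controls share the Cre allele, and the groups differ in whether Cre can delete 1 Zbtb7a allele. Cre at Emx1 acts in dorsal telencephalic progenitors and their progeny, and other cells of the dissected tissue keep both alleles. The embryos came from 2 litters, and which embryo came from which litter is not given in the sources used here, nor is their sex. Each value below is a log2 fold change of cHet over WT with its standard error (SE) from the authors' deposited table. No value of a single library was used here, so library depth and the overlap of the groups are unknown. The labelled tissue could not be checked against its markers either, because the table gives differences and no levels.

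Zbtb7a itself, at chr10:81135220-81152995 (mm10), had no row in the authors' deposited table. The genotype was thus not checked by expression. A loxP deletion can also leave a transcript that is still counted, and how much of the gene is deleted is not given in the sources used here. Among the 13 table genes on chromosome 10, the nearest to Zbtb7a was Tcf3, 0.702 Mb away, which encodes an E protein that pairs with proneural factors and was 0.35 higher (SE 0.10) per the authors' deposited table and was chosen for this position after its value was seen. Rfx4, a winged-helix factor of radial glia, lies 3.60 Mb away and is described with the patterning genes.

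Of the miRNA hairpins in the RefSeq table, 27 lay wholly inside genes of the authors' deposited table on the same strand, in 20 host genes, of which 11 rose and 9 fell. The whole table held 126 higher and 122 lower genes. How many of all tested genes hold a hairpin was not determined, so these counts are no result about miRNA hosts. A miRNA recognises its targets mainly through the seed, bases 2 to 8 of the mature strand. The sequences of the best-known of these miRNAs are shown with the direction of their hosts. Mature miRNAs lack a poly(A) tail and were not measured. For Mirlet7a-2 only let-7a-2-3p is shown, so the seed given is not that of the let-7 strand from the 5′ arm. The sequences are RefSeq entries on GRCm38.p6, 5′ to 3′, with the seed in capitals. The first 3 lie in 2610203C20Rik, a host that fell, the next is from Rian, which fell, and the last 4 are from Mcm7 and Ctdsp2, which rose.
miR-100-5p: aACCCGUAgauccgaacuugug
let-7a-2-3p: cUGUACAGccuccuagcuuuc
miR-125b-5p: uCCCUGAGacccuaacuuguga
miR-370-3p: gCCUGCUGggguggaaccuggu
miR-25-3p: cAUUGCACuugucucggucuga
miR-93-5p: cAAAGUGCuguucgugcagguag
miR-106b-5p: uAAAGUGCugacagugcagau
miR-26a-5p: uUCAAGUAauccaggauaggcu

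Only miR-93-5p and miR-106b-5p among these 8 share a seed, AAAGUGC. Both sit with Mir25 inside Mcm7, a subunit of the replicative helicase, on the minus strand of chromosome 5. Mcm7 was 0.63 higher (SE 0.19) per the authors' deposited table, and a processed pseudogene matches its transcripts at 97.7% over 2157 bases, so reads could be split between them. Ctdsp2, a phosphatase gene that hosts Mir26a-2, was 0.41 higher (SE 0.10) per the authors' deposited table and was chosen after the values were seen.

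The miRNA hosts that fell included long non-coding RNAs. On chromosome 9, 3 non-coding genes of a single locus were all in the authors' deposited table as lower. 2610203C20Rik (chr9:41327077-41716994, plus strand) spans Mir100, Mirlet7a-2 and Mir125b-1 and was lower by a log2 change of -0.62 (SE 0.18) per the authors' deposited table. Gm28119 (chr9:41581908-41582283) lies within it and holds the Mir125b-1 hairpin, and its log2 change per the authors' deposited table was -2.66 (SE 0.74). Gm35835 (chr9:41680147-41737398) is transcribed from the minus strand at the far end of the locus and had -2.90 (SE 0.77) per the authors' deposited table. In the GENCODE M21 annotation no exon of 2610203C20Rik overlaps one of Gm28119 or Gm35835. Its exons do overlap those of Gm48742 and Gm48740 on the opposite strand, by 81 and 504 bases. The library's strandedness is not given in the sources used here, so reads from these 81 and 504 bases cannot be assigned to a strand. Rian, a maternally expressed non-coding RNA of the Dlk1-Dio3 domain, had a log2 change of -0.82 (SE 0.14, adjusted p = 1.03e-05, authors' DESeq2 test) per the authors' deposited table. It was the only listed gene of 30 annotated imprinted genes. Mir124-2hg, named as the host of a hairpin of miR-124, a miRNA of neurons, is not among the 20 hosts counted above and had -0.86 (SE 0.16) per the authors' deposited table.

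Size and precision differed between the directions. In the authors' deposited table the genes that rose lay between 0.35 and 0.83, with a median of 0.52, a ratio of 1.43 between cHet and WT. The genes that fell lay between -24.80 and -0.38, with a median of -0.99, a ratio of 0.504. Per the authors' deposited table, 60 genes changed by 1 log2 unit or more, and each of them was lower. The largest SE of a higher gene was 0.220 per the authors' deposited table, and 64 lower genes had a larger SE, with a median log2 change of -1.85. Where the SE had its median among the higher genes, 0.137, a difference of 0.46 was needed to enter the authors' deposited table, and with the lower genes' median SE, 0.232, it was 0.78. The rises were thus small changes with small SEs, and the large falls had wide errors. The threshold sets part of this pattern, because a gene with a wide error is listed only with a large change. At an adjusted p under 0.01 in the authors' DESeq2 test, 21 of 126 higher and 44 of 122 lower genes were left.

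**Figure D1:**
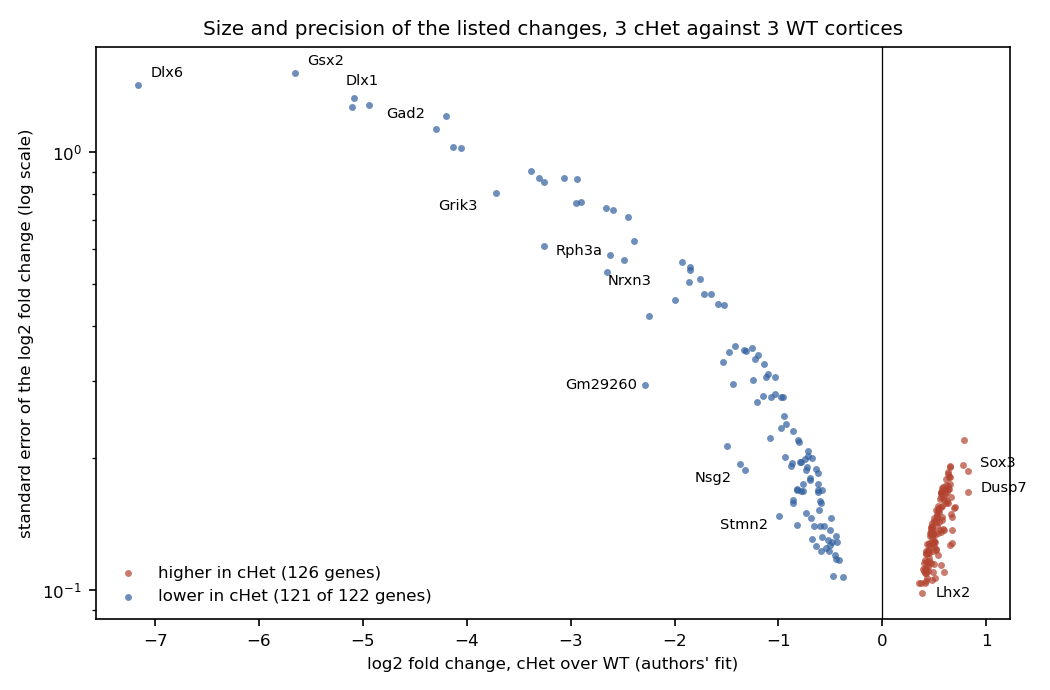
Log2 fold change of cHet over WT (x axis) against its standard error (y axis, log scale) for the genes of the authors' deposited table, with genes that rose and genes that fell in different colours; Eif2s3y at -24.80 lies outside the plotted range and is left out. Genes that rose form a compact group between 0.35 and 0.83 with SEs up to 0.220, and genes that fell spread to larger changes and larger SEs.

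Gene groups were described by the number of their annotated members in the table. Of 45 lists, 11 had no member in it. Cortical patterning factors had 11 of 36, all but 2 higher. RNA-binding and splicing proteins had 8 of 222, chromatin regulators 5 higher and 1 lower of 284, and neuronal cytoskeleton and growth genes 6 of 51, all lower. Synaptic vesicle genes had 4 of 40 and synaptic adhesion genes 4 of 45, again all lower. In 9 further lists, which were chosen after the values were seen, ribosome assembly had 10 of 105 and DNA polymerase and repair genes 11 of 120. The share of all tested genes in the table, 1.6%, is the level against which these counts stand, although each list counts annotated members whether or not they were tested. The chromatin share, 2.11%, was near that level, so the count is no result about chromatin regulators.

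**Figure D2:**
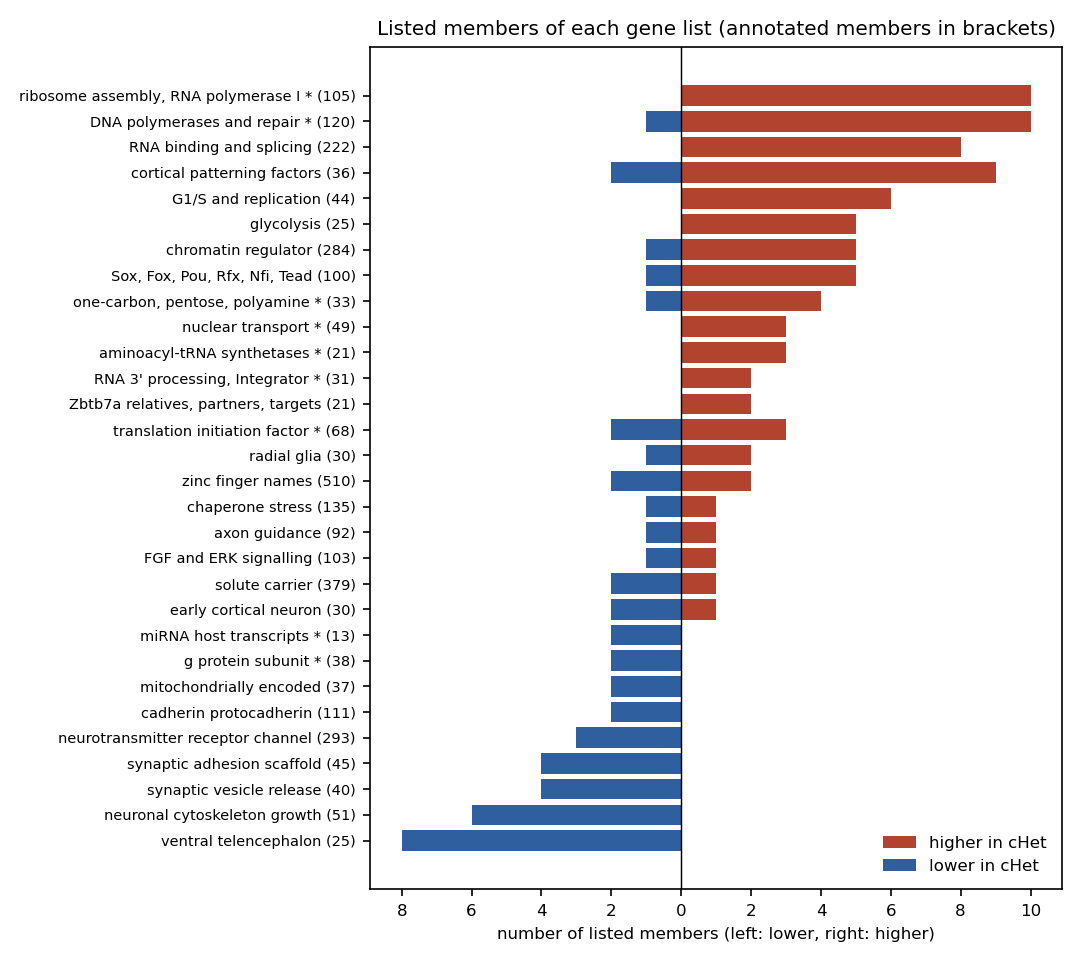
Number of genes that were higher (right) or lower (left) in cHet per the authors' deposited table (x axis), for lists with at least 2 such genes apart from homeobox genes (4 higher, 7 lower) and uncharacterised gene names (2 higher, 11 lower), with the number of annotated members in brackets; an asterisk marks lists chosen after the values were seen. Patterning, RNA-binding, ribosome assembly and DNA repair lists lie mostly on the higher side, and the neuronal and ventral lists on the lower side.

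Of 36 cortical patterning factors, 9 rose and 2 fell, a share of 30.6% beside 1.6% of all tested genes. Lhx2, a LIM homeodomain factor that selects cortical over hem identity, had the smallest adjusted p of the higher genes. Its log2 change was 0.59 (SE 0.11, adjusted p = 1.21e-04, authors' DESeq2 test) per the authors' deposited table, a ratio of 1.504 with a 95% interval of 1.30 to 1.75. Fezf2, which specifies the corticospinal fate of deep-layer neurons and is also made in progenitors, was 0.65 higher (SE 0.13) per the authors' deposited table. The DM-domain factors Dmrta2 and Dmrt3, which act with Emx2 to keep cortical progenitors dorsal, were 0.51 (SE 0.11) and 0.56 (SE 0.14) higher per the authors' deposited table. The related homeodomain factors Emx1 and Emx2 were 0.54 (SE 0.12) and 0.42 (SE 0.11) higher per the authors' deposited table. Emx1 is also the locus of the Cre allele, which both groups carry. Differences between these 6 factors were not tested.

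The other members of the patterning list that rose were Otx1, Lef1 and Nfix. Otx1, a homeodomain factor of anterior neuroectoderm, was 0.58 higher (SE 0.17) per the authors' deposited table. Lef1, the transcription factor that mediates Wnt output in the medial pallium, was 0.54 higher (SE 0.13) per the authors' deposited table and was the only listed gene of 74 Wnt pathway genes. Nfix, which promotes the differentiation of radial glia, was 0.78 higher (SE 0.22) per the authors' deposited table. Its neighbour Nacc1, 12.01 kb away, was also higher, by 0.44 (SE 0.11) per the authors' deposited table, and was chosen after the values were seen. The median of the 9 patterning factors that rose was 0.56 per the authors' deposited table, beside 0.52 for all higher genes.

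Barhl2 and Zbtb20 were the 2 patterning factors that fell. Barhl2, a homeodomain factor of the developing diencephalon that was also counted in the Cajal-Retzius list, had a log2 change of -1.48 (SE 0.35) per the authors' deposited table. The unnamed non-coding gene Gm26872, 7.63 kb from Barhl2, was lower too, at -3.26 (SE 0.85) per the authors' deposited table. Zbtb20, a BTB zinc finger protein required for hippocampal identity, had -1.03 (SE 0.28) per the authors' deposited table. No other gene of the Cajal-Retzius list, 15 genes long, was in the table. Tfap2e, an AP-2 family factor, had -2.94 (SE 0.76) per the authors' deposited table. Rorb, a nuclear receptor of sensory cortical areas, had -1.75 (SE 0.51) per the authors' deposited table and was chosen after the values were seen.

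Of 30 radial glial genes, Sox3 and Rfx4 rose and Fabp7 fell. Sox3, an X-linked SoxB1 factor that keeps neural progenitors undifferentiated, was 0.82 higher (SE 0.19) per the authors' deposited table. Rfx4 was 0.67 higher (SE 0.14) per the authors' deposited table. Fabp7, the brain fatty acid binding protein of radial glia, had a log2 change of -0.75 (SE 0.20) per the authors' deposited table. The other 27 radial glial genes were not in it. Sox2ot, a long non-coding RNA whose gene spans Sox2, fell with a log2 change of -1.37 (SE 0.19, adjusted p = 8.53e-09, authors' DESeq2 test) per the authors' deposited table. Gm43667, 48.8 kb from Sox2ot, had -1.85 (SE 0.55) per the authors' deposited table. Sox12, a SoxC factor, was 0.42 higher (SE 0.10) per the authors' deposited table, and Foxo6, a forkhead factor regulated through PI3K, was 0.77 higher (SE 0.19) per the authors' deposited table. Pou3f2, a POU factor of intermediate progenitors and upper-layer neurons, had -1.07 (SE 0.27) per the authors' deposited table. The row named E130012A19Rik, called Epop in the annotation, encodes a factor that binds Polycomb repressive complex 2 and Elongin BC, and it was 0.67 higher (SE 0.13) per the authors' deposited table.

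**Figure D3:**
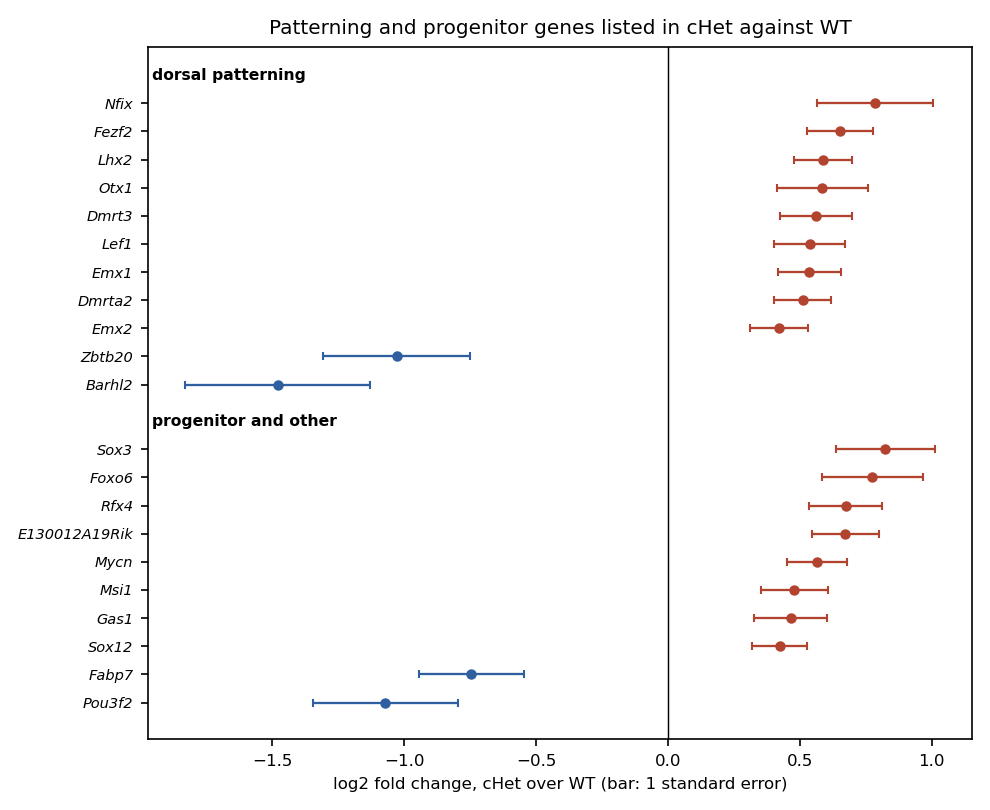
Log2 fold changes of cHet over WT with bars of 1 SE (x axis) for the patterning and progenitor transcription factors and other progenitor genes per the authors' deposited table. The genes that rose lie between 0.42 and 0.82, and Fabp7, Zbtb20, Pou3f2 and Barhl2 lie below 0.

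Of 105 genes in the ribosome assembly list, 10 rose and none fell, with a median log2 change of 0.54 per the authors' deposited table. That is 9.52% of the list, beside 1.6% of all tested genes. The list was drawn up after the values were seen, so its count is a description, and the other members have no value. Polr1b, a large subunit of RNA polymerase I, which transcribes ribosomal RNA, was 0.69 higher (SE 0.15, adjusted p = 0.00257, authors' DESeq2 test) per the authors' deposited table. Nol6 and Heatr3, which act in pre-ribosome assembly and in the import of ribosomal proteins, were 0.65 (SE 0.18) and 0.58 (SE 0.17) higher per the authors' deposited table. Tcof1, the nucleolar protein mutated in human Treacher Collins syndrome, was 0.53 higher (SE 0.16) per the authors' deposited table. Pop1, Mybbp1a, Rrp1b, Noc2l and Dhx33, all nucleolar or RNase P and MRP factors, ranged from 0.42 to 0.62 per the authors' deposited table. Pprc1, which encodes a transcriptional coactivator and not an assembly factor, was also in the list and was 0.52 higher (SE 0.12) per the authors' deposited table. None of 92 ribosomal protein genes was in the table.

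Of 68 translation initiation factor genes, in a list chosen after the values were seen, 3 rose and 2 fell. Their share was 7.35%, beside 1.6% of all tested genes. Those that fell were Eif4a2 and the Y-linked Eif2s3y, which is described below. Eif3b, Eif5b and Eif4g1, which build the initiation complex on the mRNA and join the subunits, were 0.66 (SE 0.16), 0.60 (SE 0.14) and 0.52 (SE 0.12) higher per the authors' deposited table. The helicase gene Eif4a2, whose product can partner Eif4g1, had a log2 change of -0.76 (SE 0.17) per the authors' deposited table. A pseudogene matches Eif4a2 at 99.3% over 307 bases, and snoRNAs are encoded within it. The tRNA synthetase list, also chosen after the values were seen, had 3 of 21 annotated genes in the table, 14.3%. Vars, Iars and Eprs were 0.63 (SE 0.17), 0.57 (SE 0.17) and 0.55 (SE 0.14) higher per the authors' deposited table. A pseudogene matches Iars at 96.0% over 1656 bases. Mycn, a transcription factor that drives biosynthetic growth and belongs to the G1/S list, was 0.56 higher (SE 0.11) per the authors' deposited table.

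Of 222 genes for proteins that bind or process RNA, 8 rose and none fell, with a median log2 change of 0.49 per the authors' deposited table. That is 3.6% of the list, beside 1.6% of all tested genes. None of the 8 had an adjusted p under 0.01 in the authors' DESeq2 test. The list was drawn by gene name and so includes Ddx11, a DNA helicase described with DNA repair. Sf3b3, a component of the U2 snRNP, was 0.61 higher (SE 0.18) per the authors' deposited table. The heterogeneous nuclear ribonucleoproteins Hnrnpd, Hnrnpu and Hnrnpa0 were 0.50 (SE 0.13), 0.46 (SE 0.13) and 0.45 (SE 0.12) higher per the authors' deposited table. Msi1, the Musashi protein of neural progenitors that represses translation of selected mRNAs, was 0.48 higher (SE 0.13) per the authors' deposited table. Rbm38, an mRNA-stabilising protein and p53 target, was 0.50 higher (SE 0.13) per the authors' deposited table. The Integrator subunit Ints9 and the cleavage and polyadenylation factor Cpsf1, from a list chosen after the values were seen, were 0.65 (SE 0.17) and 0.57 (SE 0.17) higher per the authors' deposited table.

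Of 33 genes of one-carbon, pentose and polyamine metabolism, a list chosen after the values were seen, 4 rose and 1 fell. Together they were 15.2% of the list, beside 1.6% of all tested genes. Shmt2, the mitochondrial enzyme that turns serine into glycine and a folate-bound carbon unit, was 0.65 higher (SE 0.19) per the authors' deposited table. Tkt, the transketolase of the pentose phosphate pathway, and Srm, the spermidine synthase, were 0.49 (SE 0.14) and 0.50 (SE 0.11) higher per the authors' deposited table. Amt, the aminomethyltransferase of the glycine cleavage system, fell with a log2 change of -0.78 (SE 0.17) per the authors' deposited table. Tcta, 0.656 kb from Amt, was also lower, at -0.62 (SE 0.17) per the authors' deposited table, and was chosen after the values were seen. None of 115 nuclear-encoded respiratory chain genes, 26 cholesterol synthesis genes or 20 hypoxia response genes was in the table. Of 25 glycolysis genes 5, or 20%, were in it, all higher, with a median of 0.53 per the authors' deposited table. Gapdh was 1 of the 5, and 103 other annotated genes match its transcripts closely. Copies also match Eno1 at 99.5% over 1736 bases, Pkm at 98.4% over 1593 and Tpi1 at 97.7% over 310.

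**Figure D4:**
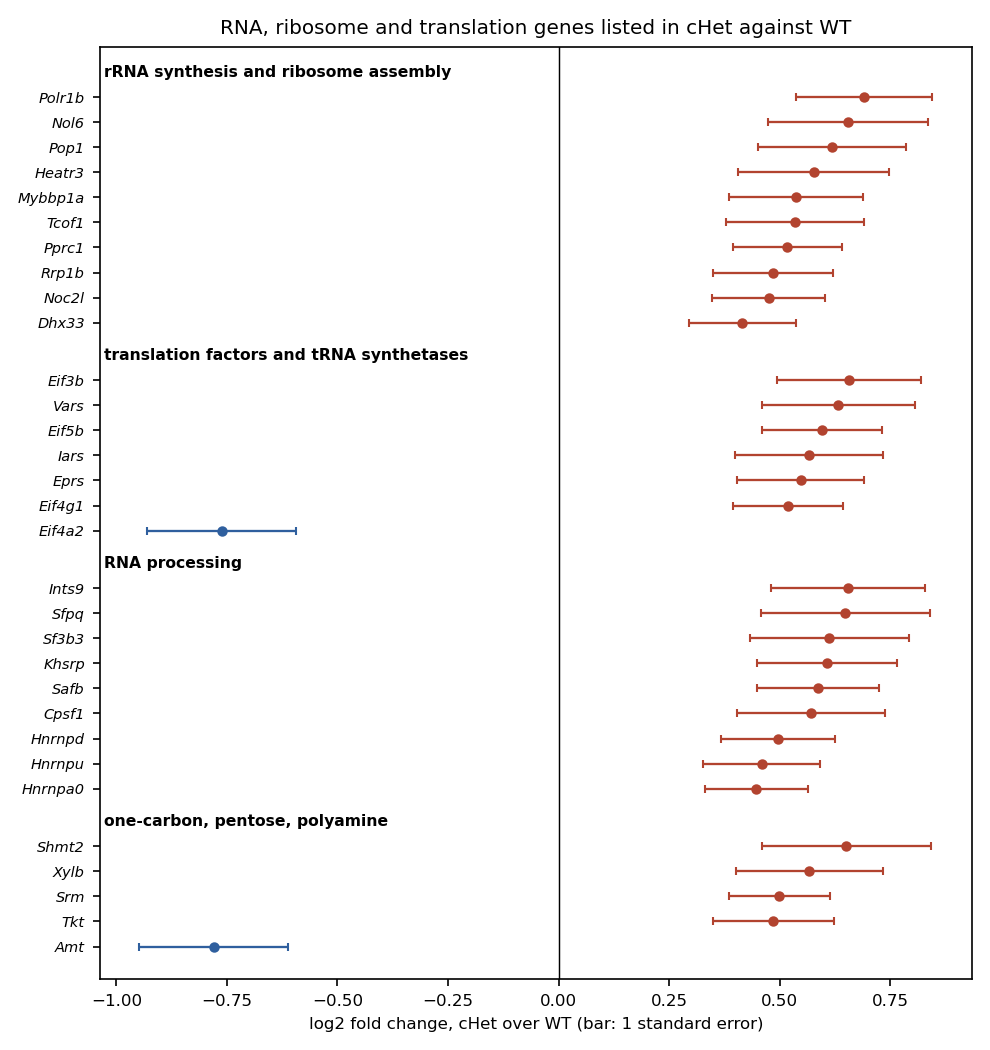
Log2 fold changes of cHet over WT with bars of 1 SE (x axis) for genes of ribosome assembly, translation, RNA processing and one-carbon, pentose and polyamine metabolism per the authors' deposited table. The genes that rose, in red, lie between 0.42 and 0.69, and Eif4a2 and Amt lie below 0. Pprc1, a transcriptional coactivator gene, is drawn with the ribosome assembly genes. Safb, Khsrp and Sfpq belong to none of the lists and were picked after their values were seen. The lists of ribosome assembly, translation factors, tRNA synthetases, RNA 3′ processing and one-carbon, pentose and polyamine genes were also chosen after that. The directions drawn are therefore no separate result.

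Of 120 DNA polymerase, replication-fork and repair genes, in a list chosen after the values were seen, 10 rose and 1 fell. Together they were 9.17% of the list, beside 1.6% of all tested genes. Their median among the higher genes was 0.56 per the authors' deposited table. Pold1 and Pold2, subunits of DNA polymerase delta, were 0.56 (SE 0.15) and 0.42 (SE 0.12) higher per the authors' deposited table. The helicase Ddx11 and the clamp loader subunit Chtf18, which act in sister chromatid cohesion, were 0.63 (SE 0.18) and 0.57 (SE 0.15) higher per the authors' deposited table. Bard1, the partner of Brca1, and Parp1, the sensor of strand breaks, were 0.54 (SE 0.15) and 0.52 (SE 0.15) higher per the authors' deposited table. Trp53, the tumour suppressor p53, was 0.56 higher (SE 0.16) per the authors' deposited table, with a pseudogene that matches it at 97.7% over 353 bases. Parp6, a mono-ADP-ribosyltransferase, had a log2 change of -0.48 (SE 0.13) per the authors' deposited table. It lies 6.08 kb from Pkm, a glycolysis gene that was 0.62 higher (SE 0.16) per the authors' deposited table. The G1/S list had 6 of 44 members in the table, all higher, and the G2/M list had 1 of 30, the condensin gene Ncapd2, which lies 1.54 kb from Gapdh.

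Of 284 chromatin regulators 6 were in the table, 2.11% beside 1.6% of all tested genes, so their number is no result about the group. Among them, Kat2a, the histone acetyltransferase of the SAGA complex, rose most, by 0.70 (SE 0.16) per the authors' deposited table. The linker histone gene H1fx, the X-linked demethylase gene Kdm5c and the remodeller gene Baz1a were 0.59 (SE 0.16), 0.55 (SE 0.16) and 0.48 (SE 0.14) higher per the authors' deposited table. H2afy, which encodes the histone variant macroH2A1, was 0.40 higher (SE 0.12) per the authors' deposited table. Actl6b, the BAF subunit that replaces its progenitor counterpart as neurons leave the cell cycle, fell with a log2 change of -1.08 (SE 0.22) per the authors' deposited table. Gatad2a, a subunit of the NuRD repressor complex, was 0.43 higher (SE 0.11) per the authors' deposited table. With Gapdh it made up the 2 listed genes of 21 in a list of Zbtb7a, its binding partners and its known targets. Samhd1, a dNTP hydrolase, was 0.66 higher (SE 0.15) per the authors' deposited table.

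Most signalling lists had shares in the table near the 1.6% of all tested genes, with 1.94% of FGF and ERK genes, 1.35% of Wnt genes and 1.28% of BMP and TGF-beta genes, so these counts are no result about the pathways. Dusp7, a phosphatase that inactivates ERK, had the largest rise of the table at 0.83 (SE 0.17) per the authors' deposited table, a ratio of 1.77. Mapk10, the neuronal JNK, had a log2 change of -1.31 (SE 0.35) per the authors' deposited table, and these were the listed genes of 103 in the FGF and ERK list. Smad3, a transducer of TGF-beta signals, and Gas1, a Hedgehog co-receptor, were 0.49 (SE 0.13) and 0.47 (SE 0.14) higher per the authors' deposited table. Rgma, a BMP co-receptor that also guides axons, was 0.45 higher (SE 0.12), and the semaphorin gene Sema5a had -0.45 (SE 0.13), per the authors' deposited table. None of 40 Notch pathway genes was in it. Gas1, Sema5a and Sppl3 had the adjusted p-values nearest below the threshold, the largest being 0.0492 by the authors' DESeq2 test per the authors' deposited table.

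Of 51 neuronal cytoskeleton and growth genes, 6 fell and none rose, a share of 11.8% beside 1.6% of all tested genes. In bulk tissue, fewer cells of a type and less RNA per cell cannot be told apart. Nsg2, a neuron-specific endosomal protein, and Stmn2, a stathmin that regulates microtubules in growing axons, had log2 changes of -1.32 (SE 0.19) and -0.999 (SE 0.15) per the authors' deposited table. Stmn2 was thus at a ratio of 0.5003 with a 95% interval of 0.409 to 0.611 per the authors' deposited table. Mapt, which encodes tau, Stmn3 and Gap43, a growth cone protein, had -0.95 (SE 0.25), -0.74 (SE 0.15) and -0.66 (SE 0.14) per the authors' deposited table. Ank2, an ankyrin of axons, had -0.46 (SE 0.12) per the authors' deposited table. The median of the 6 cytoskeleton and growth genes was -0.84 per the authors' deposited table, beside -0.99 for all lower genes. The 30-gene list of early cortical neurons had 3 members in the table, Fezf2 higher and Gap43 and Mapt lower.

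Of 40 synaptic vesicle genes 4 fell, as did 4 of 45 synaptic adhesion genes, and none of either list rose. These shares were 10% and 8.89%, beside 1.6% of all tested genes. Bsn, the active zone scaffold Bassoon, and Rab3c, a vesicle GTPase, had -0.98 (SE 0.23) and -0.94 (SE 0.20) per the authors' deposited table. Slc17a6, the vesicular glutamate transporter VGLUT2, had -0.50 (SE 0.14) per the authors' deposited table. The presynaptic adhesion gene Nrxn3 had -2.48 (SE 0.56), and Cntnap2, a related gene of axonal domains, had -0.60 (SE 0.14), per the authors' deposited table. Nrxn3 had the larger change of the pair and the wider error. The glutamate receptor genes Grik3 and Gria1 had -3.72 (SE 0.80) and -1.22 (SE 0.34), and the calcium channel subunit gene Cacnb4 had -1.72 (SE 0.47), per the authors' deposited table. These were the 3 listed genes of 293 receptor and channel genes, a share of 1.02% beside 1.6% of all tested genes, so their number is no result about the family. Rph3a, rabphilin, an effector of Rab3, had -3.26 (SE 0.61) per the authors' deposited table. Gng4 and Gng3, gamma subunits of heterotrimeric G proteins from a list chosen after the values were seen, had -2.62 (SE 0.58) and -0.67 (SE 0.20) per the authors' deposited table.

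**Figure D5:**
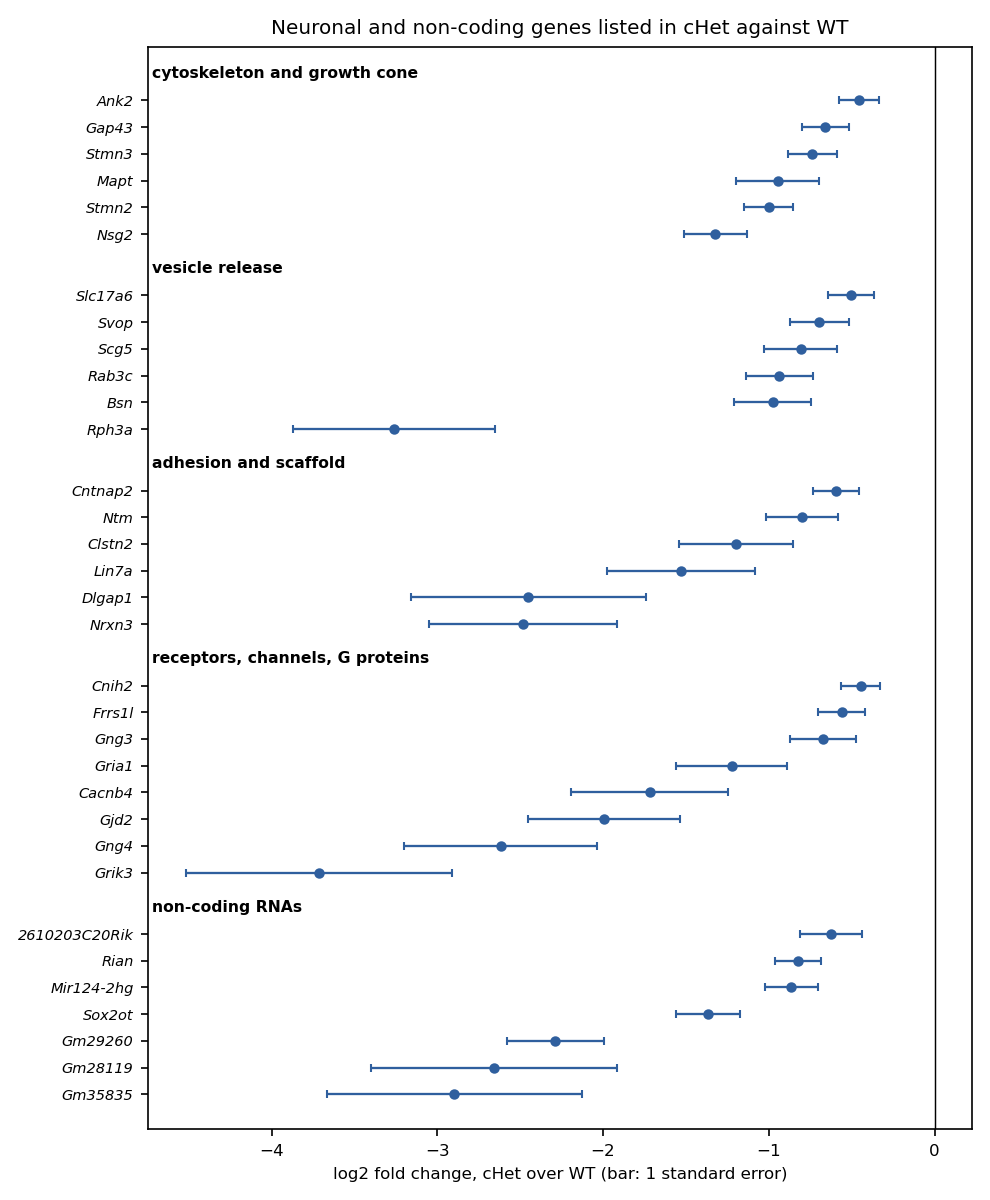
Log2 fold changes of cHet over WT with bars of 1 SE (x axis) for neuronal cytoskeleton, synaptic, receptor and G protein genes and for 7 non-coding RNAs per the authors' deposited table. All lie below 0, from -0.45 for Cnih2 to -3.72 for Grik3, and the genes with the largest changes have the widest bars. The genes were picked from those that fell, so their direction follows from the choice. Svop, Clstn2, Dlgap1, Lin7a, Cnih2, Frrs1l and Gjd2 are among those picked after their values were seen. A gene with a wide bar enters the authors' deposited table only with a large change.

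Several of the genes with the smallest adjusted p belonged to none of these groups. Gm29260, a long intergenic non-coding RNA at chr1:41781808-41939560, had the smallest adjusted p of all, 9.65e-11 by the authors' DESeq2 test, and a log2 change of -2.29 (SE 0.29) per the authors' deposited table. Aldh1a3, an enzyme that makes retinoic acid from retinal, had -4.13 (SE 1.03) per the authors' deposited table. Cpa4, a carboxypeptidase, and Tmem130, a membrane protein, had -2.25 (SE 0.42) and -2.65 (SE 0.53) per the authors' deposited table. Hecw1, a ubiquitin ligase, Akap6, an anchor of protein kinase A, and Stx7, an endosomal syntaxin, had -0.86 (SE 0.16), -0.68 (SE 0.13) and -0.64 (SE 0.13) per the authors' deposited table. The 14 genes annotated as other than protein-coding were all lower, while all 126 genes that rose were protein-coding. The share of such genes among all tested genes is not known, so this split is no result about non-coding genes. The 14 include the Dlx antisense RNAs Dlx6os1 and Dlx1as, with SEs of 1.26 and 1.02 per the authors' deposited table. No higher gene had an SE above 0.220.

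Genes of the ventral telencephalon and of other cell types were counted next. The ventral list had 8 of 25 members in the table, all lower, with a median of -5.01 per the authors' deposited table. Its members include Sst, the somatostatin gene of interneurons, at -3.06 (SE 0.87) per the authors' deposited table. Of the 10 genes with an SE over 1 per the authors' deposited table, 8 were ventral or Dlx genes, and Aldh1a3 and Eif2s3y were the others. Genes of endothelium and pericytes (27), meninges (23), blood and macrophages (26), choroid plexus and hem (22) and extracellular matrix (141) had none in the table. At the 1.6% of all tested genes, lists as short as most of these would hold no gene or 1, so these counts say little about tissue makeup. Ccl9, Ncf4, Rgs18 and Il18, genes known from immune or blood cells and chosen after their values were seen, fell although they are not in the blood and macrophage list. Of 27 diencephalic and hypothalamic genes, Dlx1 alone was in it. Whether a difference in the ventral share of the dissected tissue has a part in the neuronal and patterning changes was not tested.

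Eif2s3y, a Y-linked gene, had -24.80 (SE 3.91) per the authors' deposited table, and Kdm5c, which escapes X inactivation in mouse, was higher as given above. The other 6 of 7 Y-linked genes in the list and Xist were not in the table. Sex is not in the labels, so sex and genotype cannot be told apart for Eif2s3y and Kdm5c. The mitochondrial genes mt-Nd5 and mt-Nd6, subunits of complex I that lie tail to tail, had -1.44 (SE 0.30) and -1.24 (SE 0.30) per the authors' deposited table, and the other 35 mitochondrial genes were not in it. A nuclear pseudogene matches mt-Nd5 at 95.2% over 954 bases.

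The promoters of the genes were compared by sequence, in windows from 250 bases before to 50 after the start in RefSeq entries on GRCm38.p6, which covered 101 genes that rose and 91 that fell. The median GC content was 62.3% for genes that rose and 54.8% for genes that fell, against 56.3% over all protein-coding promoters. The median number of CpG dinucleotides per window was 23, 10 and 13 in the same order. The motif CGACCACC, part of the sequence that human ZBTB7A binds in vitro, was searched on both strands, where its reverse is GGTGGTCG. It was in 2 of 130 promoters of genes that rose, 1.54%, in 0 of 136 of genes that fell and in 0.367% of 21263 protein-coding promoters. The promoters with it belong to Dhx33, the nucleolar helicase gene above, and Samd4b, a Smaug-type RNA-binding protein gene that was 0.48 higher (SE 0.14) per the authors' deposited table. Their 250 bases before the start are shown because they are the only matches, with the motif in capitals; the first is chr11:71004433-71004682 and the second chr7:28436192-28436441, both minus strand.
Dhx33: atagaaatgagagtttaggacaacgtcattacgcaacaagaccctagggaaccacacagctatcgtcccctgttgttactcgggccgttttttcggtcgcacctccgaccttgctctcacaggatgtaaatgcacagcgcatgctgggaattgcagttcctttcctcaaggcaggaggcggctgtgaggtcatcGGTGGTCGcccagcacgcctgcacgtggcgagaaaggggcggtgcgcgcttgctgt
Samd4b: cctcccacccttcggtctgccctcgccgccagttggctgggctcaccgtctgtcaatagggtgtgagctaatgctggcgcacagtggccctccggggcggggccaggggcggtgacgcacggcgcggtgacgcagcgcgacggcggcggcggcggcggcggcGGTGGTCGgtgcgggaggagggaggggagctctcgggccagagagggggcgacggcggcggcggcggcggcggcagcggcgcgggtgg

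The cHet libraries were also compared with those of conditional knockouts by the authors, and both comparisons share the 3 cHet libraries. None of the 248 genes had a row in the authors' deposited table of knockouts against WT, which held 4 genes. Values against WT and against the knockout are given side by side, without a test. Lhx2 was 0.59 higher (SE 0.11) against WT and 0.47 higher (SE 0.11) against the knockout per the authors' deposited table. Stmn2 had -0.999 (SE 0.15) against WT and -1.11 (SE 0.15) against the knockout per the authors' deposited table. For Polr1b, with 0.69 (SE 0.15) against WT, the value was 0.50 (SE 0.15) against the knockout per the authors' deposited table. Rian, at -0.82 (SE 0.14) against WT, had -0.65 (SE 0.14) against the knockout per the authors' deposited table. Mcm7, Kdm5c, Dmrt3, Gm28119 and Gm35835 were listed against WT and had no row against the knockout.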

How the data were processed

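Poly(A) RNA libraries of 3 WT and 3 cHet embryos were compared. Per the submitters' processing notes, the authors used cutadapt, featureCounts and DESeq2 on mm10; the sources used here do not give the aligner, annotation, versions or strandedness. Rows of the deposited table hold, per the file headers, a gene, a direction word, a fold change on a log scale, its SE, a statistic and adjusted p. The deposited fold change was read as a log2 value because the authors' tool, DESeq2, reports that base. The statistic, a deposited score, was the fold change over its SE. Only p-values under 0.05 after adjustment were deposited, and 15465 tested genes were recovered from the statistics and adjusted p-values by the Benjamini-Hochberg rule, a function that was tested on simulated data. No counts were analysed here, so the planned edgeR test was not run, and no spread between embryos, depth or interval of a count can be given.

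Whether the 3 embryos per group are independent beyond the 2 litters is not known. The p-values are those of the authors' DESeq2 fit, and the sources used here do not say whether it also held the knockout libraries. They thus cannot be read as a measure of the spread between the WT and cHet embryos alone. All 248 identifiers matched GENCODE M21. The genes with no name in the table took the annotation's. Ratios and 95% intervals were computed from the log2 values and SEs with the normal distribution. Lists of genes were described by counts and medians without a test. The members and lists were chosen with earlier results of these data known, and 9 lists were added after the values were seen. Genes were named if among the 15 of smallest adjusted p in each direction, the 10 highest and the 10 lowest changes among genes with an SE of at most 1, the 10 lowest with a larger SE, the 3 nearest the threshold and all listed members of the 45 other lists; any other gene was chosen after its values were seen, members of the 9 added lists included. Transcripts were aligned to all others with BLAST 2.17.0 (95% identity over 300 bases). Calculations ran in Python 3.11.15 with pandas 2.3.3, NumPy 2.4.6 and SciPy 1.17.1, and plots in matplotlib 3.10.9. Some listed genes are not reported here.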

Additional observations from a re-analysis of the deposited data

How the results depend on the processing

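The counts depended on the threshold. Of 248 genes, 65 had an adjusted p under 0.01 (21 higher, 44 lower), 30 passed a Bonferroni threshold of 0.05 (7 higher, 23 lower), and 60 had an absolute log2 change of at least 1 (0 higher, 60 lower). A minimum absolute change of 0.5 left 69 of the 126 higher genes. The lists with at least 3 members in the table went from 17 to 5 under an adjusted p of 0.01. Leaving out genes with an SE over 1, non-coding genes or genes with a near-identical copy moved the counts of all, higher and lower genes by under 1.5 times. Among the lists, the ventral count went from 8 to 1 and the homeobox count from 11 to 5 without genes of an SE over 1, and the RNA-binding count from 8 to 0 at an adjusted p under 0.01; the other 2 filters were not run on lists. Of 118 named genes, 45 had an adjusted p under 0.01. These choices filter the authors' calls and cannot turn a direction. No paired analysis was possible because values per library were not analysed here, and leaving out each replicate was not run for the same reason. Genes that missed the threshold have no value, so their changes are unknown.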

Other observations

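Some genes that fell are known from immune cells, and were chosen after their values were seen. Ccl9, a chemokine, had a log2 change of -1.26 (SE 0.36) per the authors' deposited table. Ncf4, a subunit of the phagocyte NADPH oxidase, had -1.10 (SE 0.31), and Rgs18, a regulator of G protein signalling in platelets, had -1.93 (SE 0.56), per the authors' deposited table. Il18, an inflammatory cytokine, had -0.97 (SE 0.28) per the authors' deposited table. None of the 26 blood and macrophage genes was in that table.

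Further genes that fell are given as single values. Nts, the neurotensin precursor, had -2.94 (SE 0.87), and Qrfpr, a peptide receptor, had -3.30 (SE 0.87), per the authors' deposited table. Ednrb, the endothelin receptor B, had -0.73 (SE 0.19) per the authors' deposited table. Gjd2, the connexin of neuronal gap junctions, had -1.99 (SE 0.46) per the authors' deposited table. Ednrb and Gjd2 were chosen after their values were seen. Slc7a11, the cystine and glutamate exchanger, had -1.12 (SE 0.31) per the authors' deposited table, and 9 other annotated genes match part of its transcripts. Cdh6, a cadherin, and Pcdh9, a protocadherin, had -0.82 (SE 0.17) and -0.62 (SE 0.17) per the authors' deposited table, and these were the listed genes of 111 in their families, 1.8% beside 1.6% of all tested genes.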
